A study of Mus musculus with 59 samples.

Results

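Translation initiation factors bring the ribosome to messenger RNA and find the start codon, and the eIF2 kinases slow that process under stress. All rows of the table whose symbol begins with Eif followed by a digit from 1 to 6 were taken, which gave 55 of 19613 genes. Of these, 51 encode initiation factors, proteins bound to them or eIF2 kinases, and 4 (Eif2c1 to Eif2c4) are older symbols of the Argonaute genes, whose proteins carry small RNAs and are not initiation factors. The mRNAs were measured on exon arrays of embryoid bodies that contained spinal motor neurons, made from a mouse embryonic stem cell line with green fluorescent protein under the HB9 promoter, after 24 h with 5% mouse serum. In 29 arrays the serum came from male mice hemizygous for the human SOD1 G93A transgene before symptoms (carrier serum), and in 30 arrays it came from their male littermates without the transgene (non-carrier serum). The mice were of a mixed C57BL/6 and SJL background, and the labels give 9 weeks for 53 arrays and 10 weeks for 6. The same cell line was exposed to both serums.

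The labels name no batch of cells. The titles were used instead, and arrays with a common name or with neighbouring numbers formed 1 run. There were 9 such runs, called motorneuron, HB9MNs, A to F and ten-week, each with both serums. Embryoid bodies hold several cell types, and in such bulk RNA fewer cells of a type cannot be told apart from less RNA per cell. Of the marker genes measured, 5 for motor neurons, 4 for neural progenitors, 4 for pluripotent cells and 1 for red blood cells, 0 passed the test of carrier against non-carrier serum. Their differences ran from -0.09 to 0.12 in log2 intensity. At an unadjusted p under 0.05 in limma, the motor neuron gene Lhx3 and the progenitor gene Olig2 were lower. At that level the motor neuron genes Isl1 and Isl2 and the pluripotency genes Pou5f1 and Nanog were higher. Of all genes, 20.7% reached it. An array intensity has no level that marks absence, so these values do not say which cell types were present.

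Initiation starts when eIF2, a trimer of alpha, beta and gamma subunits, carries the initiator tRNA to the small ribosomal subunit. There eIF1, eIF1A, eIF5 and the large eIF3 complex hold it in a form that scans the messenger. eIF4E binds the cap, eIF4G is the scaffold and eIF4A the helicase, while the eIF4E-binding proteins compete with eIF4G for eIF4E. Phosphorylation of the eIF2 alpha subunit by its kinases blocks the exchange factor eIF2B and lowers most translation, but raises translation of the transcription factor ATF4, whose targets include Eif4ebp1. This branch is called the integrated stress response. Only mRNA was measured here, so neither the phosphorylation of eIF2 or of the binding proteins nor the rate of translation is known.

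The promoter of Eif1 is shown because Eif1 had the smallest p of all genes in the serum comparison, and that of Eif2s3x because it was the 1 promoter of the members with the searched ATF4 element. The sequences run 5′ to 3′ on the strand of the gene, from 250 bases before to 50 bases after its RefSeq start, from RefSeq on build GRCm38.p6. The capitals mark matches on either strand to TGATGNAA, the core of the composite element of ATF4 and C/EBP proteins, or to CCAAT, the box bound by NF-Y. The window of Eif1 lies at chr11:100319699-100319998 on the plus strand, and that of Eif2s3x at chrX:94212602-94212901 on the minus strand.
Eif1: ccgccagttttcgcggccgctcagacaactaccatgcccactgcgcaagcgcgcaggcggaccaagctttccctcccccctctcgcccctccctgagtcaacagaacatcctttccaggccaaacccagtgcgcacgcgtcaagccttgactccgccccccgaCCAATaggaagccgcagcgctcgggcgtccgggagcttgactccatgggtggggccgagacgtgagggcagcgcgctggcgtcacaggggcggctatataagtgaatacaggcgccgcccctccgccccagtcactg
Eif2s3x: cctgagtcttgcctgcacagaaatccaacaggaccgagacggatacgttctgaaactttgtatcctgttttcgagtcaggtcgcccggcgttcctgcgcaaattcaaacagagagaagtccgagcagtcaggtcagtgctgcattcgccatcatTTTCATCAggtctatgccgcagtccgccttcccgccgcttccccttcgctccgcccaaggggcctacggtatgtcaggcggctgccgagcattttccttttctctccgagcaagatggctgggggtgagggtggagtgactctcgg

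The Eif1 window holds 1 CCAAT box on the strand of the gene and no match to TGATGNAA, and the Eif2s3x window holds 1 match to TGATGNAA on the opposite strand. Among the members, 45 had a promoter in the table. TGATGNAA was found in 1 of them, or 2.22%, against 4.51% of all 27025 genes with a promoter, and CCAAT in 16, or 35.6%, against 41.1% of all. In the list of integrated stress response genes, 5 of 16 promoters held TGATGNAA, those of Atf3, Trib3, Chac1, Asns and Nupr1. A gene counted if any of its windows held the motif, and in the windows shown no match to 1 motif overlapped a match to the other. The promoter of Eif4ebp1 was not among the sequences used.

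Carrier serum was followed by lower mRNA of 2 of the 55 members, Eif1 and Eif4ebp1, and by higher mRNA of 0. Eif1 encodes the factor that keeps the scanning ribosome from starting at a poor codon, and Eif4ebp1 encodes 4E-BP1, the inhibitor of eIF4E that mTOR phosphorylates. Eif1 was 8.75% lower with carrier serum and Eif4ebp1 was 20.7% lower. Over all genes of the table, 2.33% passed this test, 1.65% lower and 0.683% higher. A difference counted as called where limma, with the run as a block, gave an adjusted p under 0.05 over all 19613 genes (Benjamini-Hochberg). Of the 55 members, 38 were lower and 17 higher in the estimate, with a median difference of -0.02 in log2 intensity, whereas over all genes 7629 were lower and 11984 higher with a median of 0.02. With array medians centred 39 members were lower, and with quantile normalization 37. The genes above the median intensity held 52 of the members, of which 37 were lower. Tested among those genes alone, 3 of the 52 members were called (Eif1, Eif3c and Eif4ebp1), all lower, while 6.68% of those genes were called. The median difference was -0.01 over those brighter genes and -0.02 over the members among them. At an unadjusted p under 0.05 there were 7 members lower and 2 higher, and 20.7% of all genes reached that level.

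**Figure D1:**
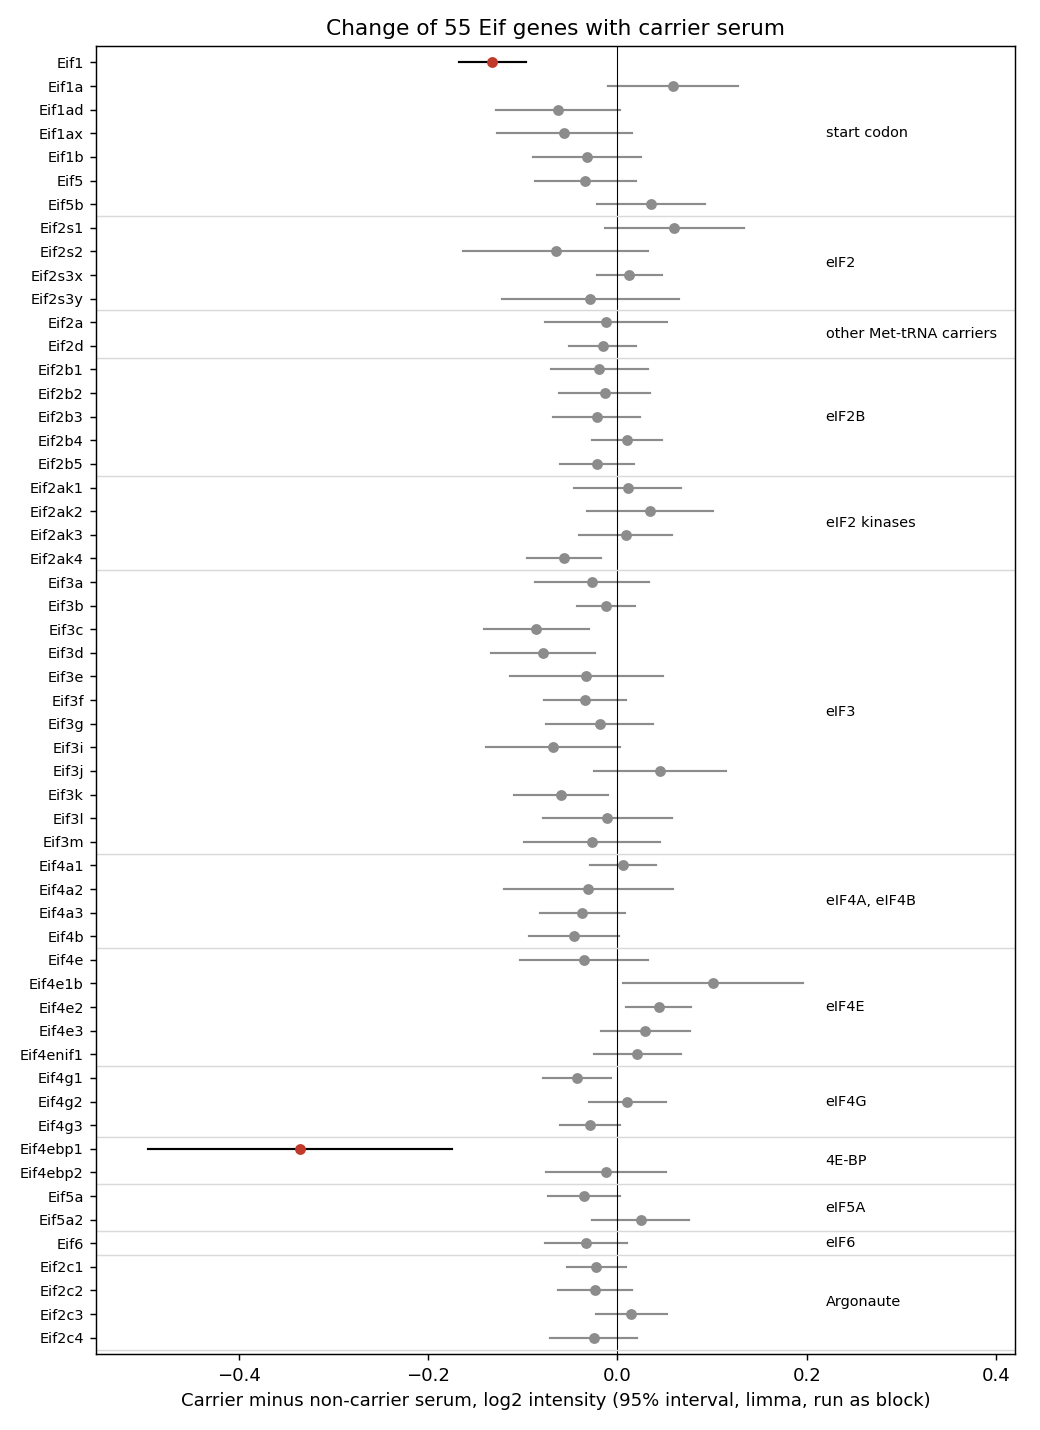
Carrier minus non-carrier difference of each of the 55 members in log2 intensity (x axis), with the 95% interval from limma, ordered by complex. Red points with black bars mark the 2 members that passed the test, Eif1 at -0.13 and Eif4ebp1 at -0.33, and the intervals of most others span 0.

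Eif1 ranked first of all 19613 genes by p. Over the 29 carrier arrays its log2 intensity had a lowest value of 11.94, a median of 12.23 and a highest of 12.38, and over the 30 non-carrier arrays a lowest of 11.94, a median of 12.39 and a highest of 12.56. The groups overlapped when all runs were pooled, and within runs they overlapped in 4 of 9.

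In run A, Eif1 had log2 intensities of 12.08, 12.15 and 12.20 with carrier serum and 12.28, 12.29 and 12.32 with non-carrier serum. In run B the carrier arrays had 12.20, 12.32 and 12.38 and the non-carrier arrays 12.41, 12.44 and 12.54. In run D the carrier arrays had 12.14, 12.31 and 12.32 and the non-carrier arrays 12.41, 12.42, 12.43 and 12.52. Every carrier array of these runs lay under every non-carrier array of its own run. The same held in run F, where the carrier arrays had 12.19, 12.22 and 12.26 and the non-carrier arrays 12.33, 12.38 and 12.41. It held also in the ten-week run, with 12.24, 12.32 and 12.35 against 12.42, 12.48 and 12.56. Eif1 thus lay lower without overlap in 5 of 9 runs, which 0.882% of all genes did in 5 or more runs.

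The other 4 runs overlapped. In run C the carrier arrays ran from 12.16 to 12.32 and the non-carrier arrays from 12.31 to 12.40. In run E the carrier arrays had 12.21, 12.34 and 12.36 and the non-carrier arrays 12.36, 12.43 and 12.51, so the groups only touched. In the HB9MNs run the values were 12.20 and 12.33 against 12.32 and 12.44. In the motorneuron run, where Eif1 was lowest in both groups, the carrier arrays had 11.94, 12.01 and 12.02 and the non-carrier arrays 11.94, 12.00, 12.01 and 12.09.

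The mean of Eif1 was 12.23 ± 0.11 in log2 intensity with carrier serum (SD, n = 29) and 12.35 ± 0.16 with non-carrier serum (SD, n = 30). Within runs and groups the SD was 0.06. The fitted difference was -0.13 with an SE of 0.02 and a 95% interval of -0.17 to -0.10, at an adjusted p of 1.63e-05 in limma. Eif1 was lower in 9 of 9 runs, from -0.02 in the motorneuron run to -0.19 in run D, and it was the 1 member for which this held. Over all genes, 1.11% were lower in all runs and 1.76% had the same sign in all runs. A difference of the serum change between runs did not pass the test for Eif1, with an adjusted p of 0.872 in limma. In runs E and F alone the difference was -0.14, with an adjusted p of 0.282. With no run block the adjusted p of Eif1 was 0.845 and that of Eif4ebp1 0.995.

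**Figure D2:**
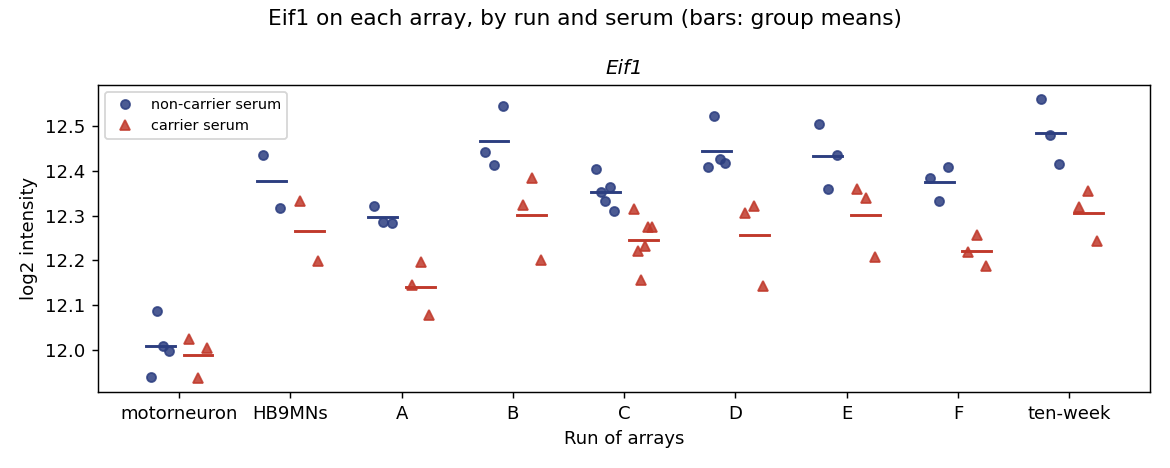
Log2 intensity of Eif1 (y axis) on each of the 59 arrays by run (x axis), with circles for non-carrier serum, triangles for carrier serum and bars for group means. The carrier mean lies under the non-carrier mean in 9 of 9 runs, least in the motorneuron run.

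Close relatives of Eif1 did not pass the test. Eif1b, which encodes a protein nearly the same as eIF1, had a difference of -0.03 with a 95% interval of -0.09 to 0.02. It was lower in 5 of 9 runs, from -0.27 in run E to 0.07 in run C. Eif1ax, the X-linked gene of eIF1A, had -0.06 with an interval of -0.13 to 0.02, and its relative Eif1a had 0.06 with an interval of -0.01 to 0.13. Eif1ad, an eIF1A domain gene, had -0.06 with an interval of -0.13 to 0.00. Eif5, which makes eIF2 hydrolyse its GTP at the start codon, had -0.03 with an interval of -0.09 to 0.02. Eif5b, which joins the ribosomal subunits, had 0.04 with an interval of -0.02 to 0.09. Genes as alike as Eif1 and Eif1b may share probe signal, and this was not tested.

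Eif4ebp1 had a larger change than Eif1 and a far less even one. Its log2 intensity over the carrier arrays had a lowest value of 8.09, a median of 9.09 and a highest of 10.28, and over the non-carrier arrays a lowest of 8.14, a median of 9.72 and a highest of 10.67. In run B the carrier arrays had 8.09, 8.69 and 8.73 and the non-carrier arrays 9.38, 9.75 and 10.28. In run D the carrier arrays had 8.72, 8.98 and 9.09 and the non-carrier arrays 9.45, 9.51, 9.69 and 9.95. In both runs every carrier array lay under every non-carrier array.

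In run F, Eif4ebp1 had 9.46, 9.65 and 9.89 with carrier serum against 10.17, 10.32 and 10.44. In run E it had 9.65, 9.69 and 9.74 against 10.10, 10.10 and 10.30. Both runs again parted the groups in full. In run A the values were 8.17, 8.17 and 8.27 against 8.33, 8.38 and 8.64, and in the ten-week run 10.12, 10.19 and 10.28 against 10.28, 10.36 and 10.67, where the groups were parted only narrowly. Eif4ebp1 was thus lower without overlap in 6 of 9 runs, which 0.265% of all genes were in 6 or more runs.

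The remaining 3 runs did not share this direction. In the HB9MNs run the 2 carrier arrays, at 9.18 and 9.22, lay above the 2 non-carrier arrays, at 9.10 and 9.15. In the motorneuron run the carrier arrays had 9.85, 9.95 and 10.00 and the non-carrier arrays 9.63, 9.92, 9.95 and 10.13. In run C the carrier arrays ran from 8.18 to 8.90 and the non-carrier arrays from 8.14 to 8.61, with much overlap.

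The mean of Eif4ebp1 was 9.14 ± 0.70 with carrier serum (SD, n = 29) and 9.52 ± 0.79 with non-carrier serum (SD, n = 30). The fitted difference was -0.33 in log2 intensity with an SE of 0.08 and a 95% interval of -0.50 to -0.17, at an adjusted p of 0.0155 in limma. Without runs B and D, a choice made after seeing the data, the difference was -0.15 with an adjusted p of 0.350. Leaving out run B, D, E or F alone also put Eif4ebp1 above the threshold, with adjusted p of 0.0709, 0.129, 0.0507 and 0.0730. Without run C the difference was -0.46.

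The serum change of Eif4ebp1 itself differed between runs, and no gene of the table had a smaller p in this test. The interaction of serum and run had an F of 8.98 and an adjusted p of 0.00246 in limma. It was called for 1 of 55 members and for 0.127% of all genes. The differences of Eif4ebp1 by run were -1.30 in run B, -0.72 in run D, -0.64 in run F, -0.48 in run E, -0.25 in run A and -0.24 in the ten-week run. They were 0.03 in the motorneuron run, 0.07 in the HB9MNs run and 0.20 in run C. Without run C the interaction of Eif4ebp1 had an adjusted p of 0.120 and no gene was called. At an unadjusted p under 0.05 the interaction held for 5 members over all runs, and for 7.94% of all genes.

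Atf4, the transcription factor whose translation rises when eIF2 is phosphorylated, had differences in the same runs of -0.65 in run B, -0.50 in run D, -0.46 in run F and -0.51 in run E. They were -0.07 in run A, -0.22 in the ten-week run, -0.03 in the motorneuron run, -0.07 in the HB9MNs run and 0.07 in run C. The 4 runs with the largest falls of Eif4ebp1 were the 4 with the largest falls of Atf4. Both sets of differences come from the same arrays and are therefore given side by side without a test. Over all runs Atf4 fell by 0.25 in log2 intensity, at an adjusted p of 0.00329 in limma.

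**Figure D3:**
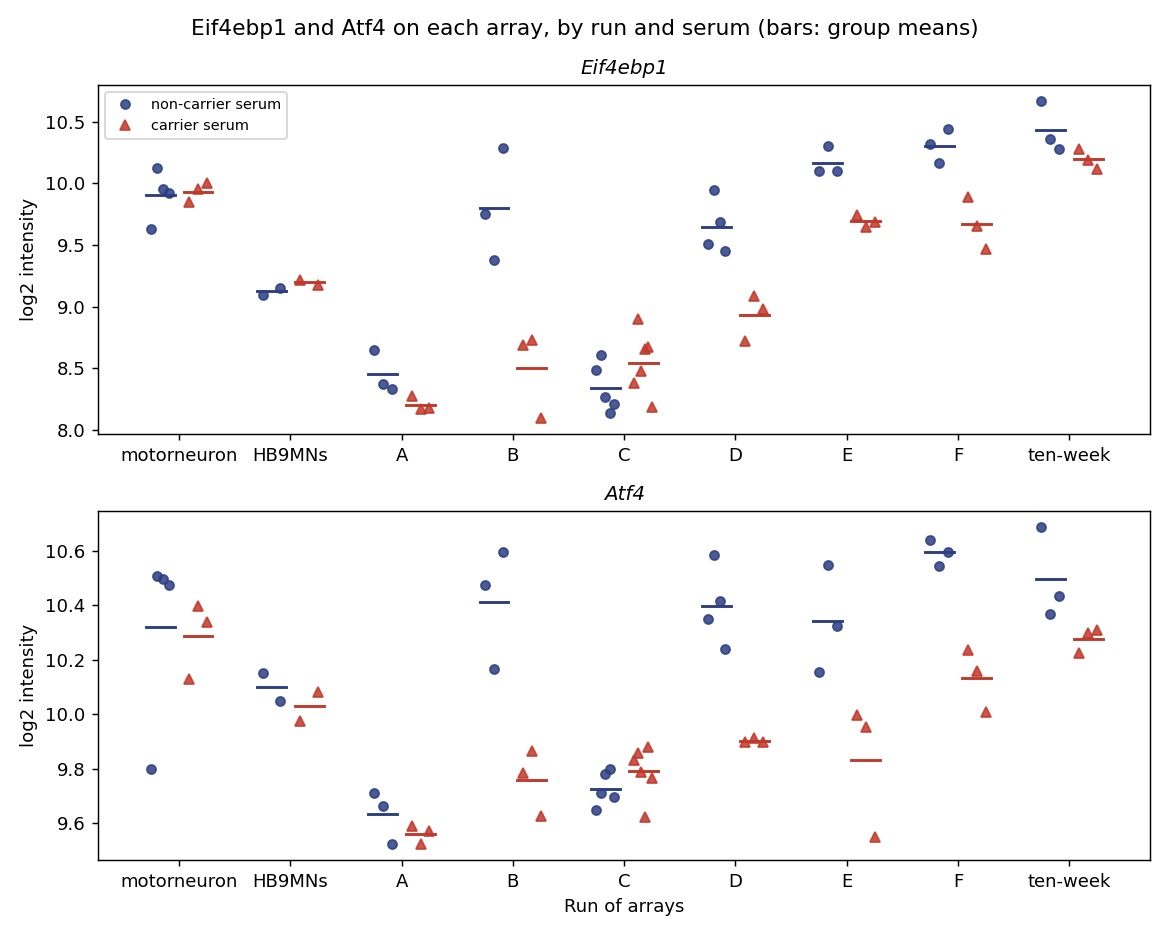
Log2 intensity of Eif4ebp1 (upper panel) and Atf4 (lower panel) on each of the 59 arrays by run (x axis), with circles for non-carrier serum, triangles for carrier serum and bars for group means. In runs B, D, E, F and ten-week both genes lie lower with carrier serum without overlap, and in run C neither does.

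Eif4ebp2, which encodes the other binding protein of eIF4E measured here, had 9.30 ± 0.22 with carrier serum (SD, n = 29) and 9.33 ± 0.22 with non-carrier serum (SD, n = 30). Its difference was -0.01 with a 95% interval of -0.08 to 0.05. Eif4ebp3 was not analysed here.

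The 4 eIF2 kinases sense different stresses, and 0 of them passed the test. Eif2ak4, which encodes GCN2, the sensor of uncharged tRNA, had 7.92 ± 0.13 with carrier serum (SD, n = 29) and 7.98 ± 0.12 with non-carrier serum (SD, n = 30). Its difference was -0.06 with a 95% interval of -0.10 to -0.02, at an adjusted p of 0.0985 in limma, and it was lower in 8 of 9 runs. By run it went from -0.15 in the motorneuron run to -0.05 in the ten-week run and -0.04 in the HB9MNs run, with 0.09 in run C. Eif2ak4 was called in 3 of 25 alternatives and remained uncalled in 22. Without run C its difference was -0.09 with an adjusted p of 0.000425 in limma, where 8.16% of all genes were called. With array weights its adjusted p was 0.00937, where 14.3% of all genes were called. With 4 motor neuron genes as covariates it was 0.00869, where 31.2% were. Eif2ak3, which encodes PERK, the sensor in the endoplasmic reticulum, had 0.01 with an interval of -0.04 to 0.06. Eif2ak1, which encodes the haem-regulated kinase HRI, had 0.01 with an interval of -0.05 to 0.07. Eif2ak2, which encodes PKR, the kinase bound by double-stranded RNA, had 0.03 with an interval of -0.03 to 0.10. Their mRNA levels say nothing of their activity as kinases.

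Of the eIF2 subunits, 0 of 4 passed the test. Eif2s1, the alpha subunit that the kinases phosphorylate, had 9.45 ± 0.17 with carrier serum (SD, n = 29) and 9.40 ± 0.17 with non-carrier serum (SD, n = 30), a difference of 0.06 with a 95% interval of -0.01 to 0.13. Eif2s2, the beta subunit, had -0.06 with an interval of -0.16 to 0.03, and by run it ranged from -0.40 in run B to 0.17 in the motorneuron run. The gamma subunit has an X-linked and a Y-linked gene. Eif2s3x had 11.49 ± 0.12 with carrier serum (SD, n = 29) and 11.47 ± 0.11 with non-carrier serum (SD, n = 30), a difference of 0.01 with an interval of -0.02 to 0.05. Eif2s3y had 7.83 ± 0.24 with carrier serum (SD, n = 29) and 7.87 ± 0.20 with non-carrier serum (SD, n = 30), a difference of -0.03 with an interval of -0.12 to 0.07. These gamma genes are close copies and may share probe signal.

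The exchange factor eIF2B, which reloads eIF2 with GTP, had 0 of 5 subunits past the test, with differences from -0.02 to 0.01. All 5 intervals lay between -0.07 and 0.05. Eif2a and Eif2d, which can bring initiator tRNA to the ribosome without eIF2, had -0.01 and -0.02.

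eIF3, the scaffold on the small subunit, had 11 of 12 members lower in the estimate, but 0 passed the test. Its median difference was -0.03. Eif3c, a core subunit, had 10.89 ± 0.16 with carrier serum (SD, n = 29) and 10.98 ± 0.16 with non-carrier serum (SD, n = 30). The difference was -0.09 with a 95% interval of -0.14 to -0.03, at an adjusted p of 0.0775 in limma. Eif3c was lower in 8 of 9 runs and without overlap in 5, and 0.882% of all genes were so in 5 or more runs. Those 5 runs were F at -0.20, ten-week at -0.15, B and D at -0.14 each and HB9MNs at -0.05, and the motorneuron run had 0.02. Eif3c was called in 7 of 25 alternatives, among them without run C at an adjusted p of 0.0268 and without the motorneuron run at 0.0181, and with 4 motor neuron genes as covariates its difference was -0.16 with an adjusted p of 0.000175. Of all genes, 8.16%, 3.07% and 31.2% were called in these 3 settings, in that order. Eif3d, which can itself bind the cap of some messengers, had -0.08 with an adjusted p of 0.102, and Eif3k had -0.06 with an adjusted p of 0.164. Both were called with array weights, at adjusted p of 0.0366 and 0.00992 in limma, where 14.3% of all genes were called. Eif3d was also called without run C, at 0.0267, and Eif3k without the motorneuron run, at 0.0333. Each was called in 2 of 25 alternatives. Eif3j was the 1 member of eIF3 that lay higher, at 0.05 with an interval of -0.02 to 0.11. The count of 11 lower stayed at 11 with array medians centred and with quantile normalization, and fell to 9 without run C.

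In the cap-binding group, 0 of 5 members passed. Eif4e, the cap-binding protein, had -0.04 with a 95% interval of -0.10 to 0.03. Eif4e1b, a relative of Eif4e, had 0.10 with an interval of 0.01 to 0.20 and an adjusted p of 0.215 in limma. It was called in 1 of 24 alternatives, at 0.0296 with 4 motor neuron genes as covariates, where 31.2% of all genes were called. Eif4e2, which encodes 4EHP, a cap-binding repressor, had 0.04 with an adjusted p of 0.148. Of eIF4G, the scaffold, Eif4g1 had -0.04 with an adjusted p of 0.177, Eif4g2 0.01 and Eif4g3 -0.03. The helicase genes Eif4a1 and Eif4a2 had 0.01 and -0.03, Eif4a3, which belongs to the exon junction complex, had -0.04, and Eif4b, which assists the helicase, had -0.05. Eif5a had -0.04, Eif5a2 0.02 and Eif6, which keeps the large ribosomal subunit from joining too early, -0.03. The 4 Argonaute genes ran from -0.03 to 0.01.

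Of other genes of the pathway, the integrated stress response had 13 of 18 genes called lower and 0 called higher, whereas 0 of 17 partners of initiation and 0 of 10 factors of elongation and termination were called in either direction. Over all genes, 1.65% were called lower and 0.683% higher. The lists were chosen with earlier results of these data known, and the study had reported lower mRNA of targets of ATF4 and CHOP. The count of 13 is therefore not independent of those results. The members of that stress response that fell include Chac1 by 0.43 in log2 intensity, Atf3 by 0.39, Ddit4 by 0.31, Ddit3 by 0.29 and Trib3 by 0.28. The regulatory subunits of the eIF2 alpha phosphatase also fell, Ppp1r15a by 0.18 and Ppp1r15b by 0.12, with adjusted p of 0.0391 and 0.0259 in limma. Impact and Gcn1l1, the inhibitor and the activator of GCN2, had differences of 0.00 and -0.01. Among the partners, Pdcd4, an inhibitor of eIF4A, had 0.07 with an adjusted p of 0.0788. Of the elongation factors, Eef1b2 had -0.13 with an adjusted p of 0.0543 in limma and was lower in 8 of 9 runs. At an unadjusted p under 0.05, 4 of the 10 genes of elongation and termination were lower and 0 higher. Of the 17 partners, 2 were lower and 3 higher, and 20.7% of all genes reached that level.

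The level of nearly all members depended on the run. The test over the 9 runs called 54 of 55 members, and 94.0% of all genes. The exception was Eif2c3, with an adjusted p of 0.163 in limma. The difference between the highest and lowest run mean, the run range, had a median of 0.44 in log2 intensity over the members and 0.53 over all genes. The share of variance between runs had a median of 65.7% over the members and 62.5% over all genes.

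Eif4ebp1 had by far the widest run range of the members, 1.99, from a mean of 8.33 in run A to 10.32 in the ten-week run, and 46 genes of the table had a wider one. Among the kinases, Eif2ak2 had a run range of 0.78, from 5.65 in the HB9MNs run to 6.42 in run E, and Eif2ak1 ran from 8.44 in the motorneuron run to 8.98 in run B. Eif2ak3 ran from 8.29 in the ten-week run to 8.75 in the motorneuron run, and Eif2ak4 from 7.74 in run B to 8.09 in the motorneuron run. The kinases therefore did not share 1 order of the runs.

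Among the eIF2 subunits Eif2s2 had the widest run range, 0.71, with 9.09 in run A and 9.80 in run E. Eif2s1 had its lowest and highest means in the same runs, 9.17 in run A and 9.55 in run E. Eif2s3x ran from 11.33 in the motorneuron run to 11.65 in run B, and Eif2s3y from 7.67 in run F to 8.16 in the HB9MNs run. The subunits of eIF2B had narrow run ranges, from 0.17 for Eif2b5 to 0.38 for Eif2b3 and 0.44 for Eif2b2.

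In eIF3 the run ranges went from 0.19 for Eif3b to 0.61 for Eif3f and 0.70 for Eif3d. Eif3d was highest in the motorneuron run, at 10.71, and Eif3f was lowest in it, at 10.69 against 11.30 in the ten-week run. The mRNAs of these subunits therefore had opposite extremes in the motorneuron run. Differences between runs hold every difference between batches, biological or technical. Of the start codon factors, Eif1ad and Eif1a had the widest run ranges, 0.56 and 0.49, and Eif1b the narrowest, 0.28. Of the cap-binding group, Eif4e1b and Eif4e3 had the widest, 0.74 and 0.55, and Eif4enif1, the carrier of eIF4E into the nucleus, the narrowest, 0.31.

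In the helicase group the run ranges were 0.52 for Eif4a3, 0.46 for Eif4b and 0.34 for Eif4a1. They were 0.53 for Eif4g3, 0.44 for Eif4g1 and 0.32 for Eif4g2. Eif5a and Eif5a2 had 0.49 and 0.51 and lay in opposite order, since Eif5a was lowest and Eif5a2 highest in the motorneuron run. Eif6 had 0.58 and was lowest in that run too. Of the Argonautes, Eif2c4 and Eif2c1 had 0.43 and 0.40 and Eif2c3 0.11, the smallest run range of all members.

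**Figure D4:**
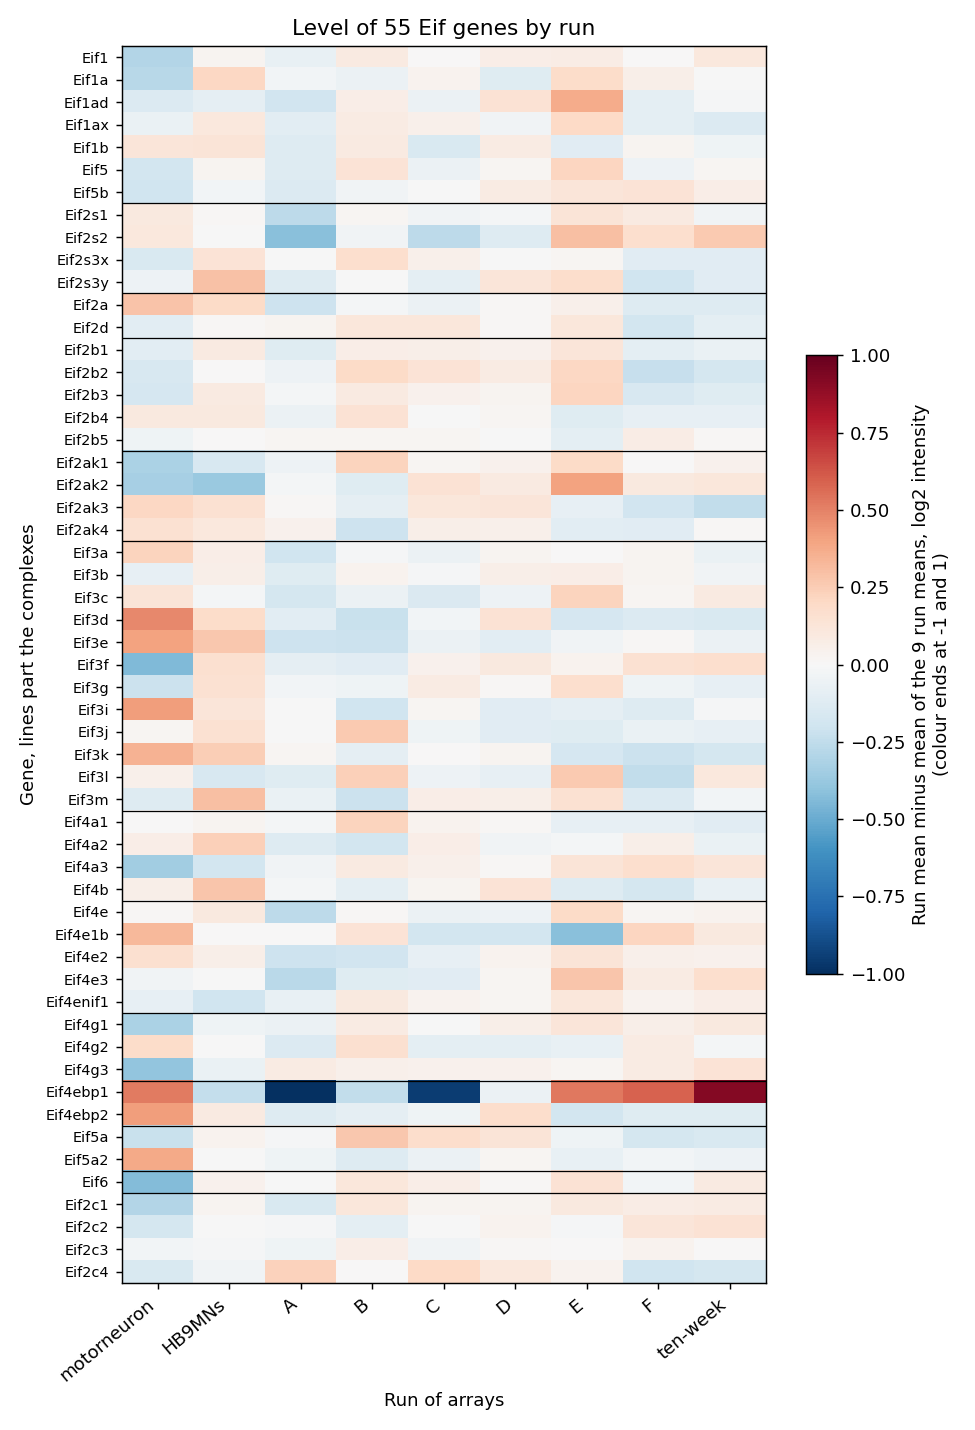
Mean log2 intensity of each of the 55 members (rows, by complex) in each of the 9 runs (columns), minus the gene's mean over the runs, with red for higher and blue for lower. Eif4ebp1 shows the widest range, 1.99, and the motorneuron run holds the highest or lowest mean of many members.

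The last comparison asked which members varied with Atf4 mRNA among arrays after removal of run and serum. The slope is the change in log2 intensity of a member for 1 log2 unit of Atf4. It passed the test for 17 of 55 members, 14 with a positive and 3 with a negative slope. Of all genes 14.0% passed, 6.89% positive and 7.07% negative. Tested among the genes above the median intensity, 22 of 52 members passed, 2 of them negative, and 21% of those genes did. The median slope was 0.03 over those brighter genes and -0.06 over all genes. Eif4ebp1 had the steepest slope of the members, 1.23 with an SE of 0.14 and an adjusted p of 3.50e-08 in limma, and only 8 genes had a smaller p. This fit leaves in any serum change that differs between runs, which passed the interaction test for Eif4ebp1 and had an adjusted p of 0.0721 for Atf4. With run and serum together as the block the slope of Eif4ebp1 was 0.78 with an adjusted p of 0.00766. In the carrier arrays alone it had an adjusted p of 0.269.

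**Figure D5:**
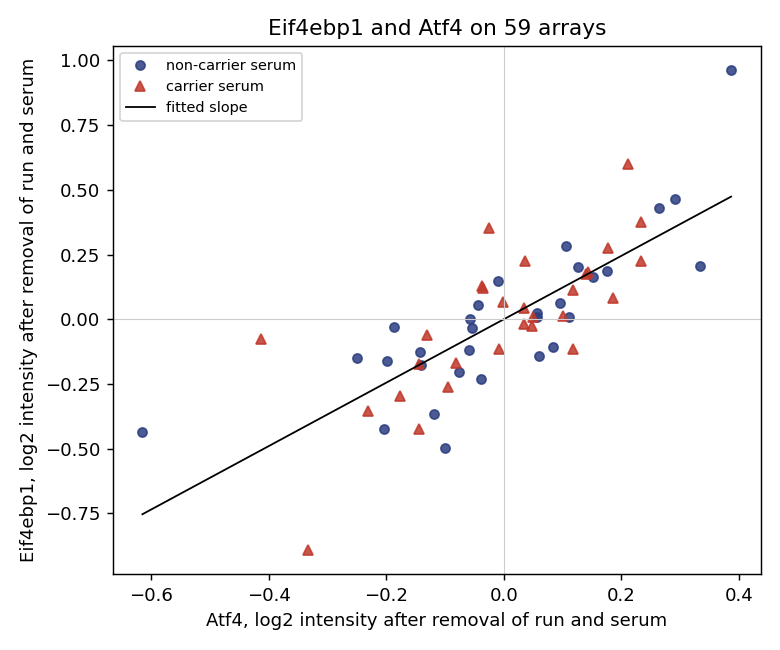
Log2 intensity of Eif4ebp1 (y axis) against that of Atf4 (x axis) on the 59 arrays, each after removal of run and serum, with circles for non-carrier serum, triangles for carrier serum and a line for the fitted slope of 1.23. The lowest Atf4 value, at -0.62, is 1 non-carrier array of the motorneuron run.

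After Eif4ebp1, the positive slopes with the smallest p were those of Eif1b, at 0.36 with an SE of 0.06 and an adjusted p of 6.07e-05 in limma, and Eif3e, at 0.43 with an SE of 0.09 and an adjusted p of 0.00225. The 3 negative slopes were those of Eif4e1b, at -0.41 with an adjusted p of 0.0176, Eif2c1, at -0.12 with 0.0355, and Eif4g1, at -0.13 with 0.0430. In eIF3, 6 of 12 members had a called positive slope and 0 a negative one. Beside Eif3e these were Eif3i at 0.34, Eif3m at 0.33, Eif3k at 0.24, Eif3c at 0.23 and Eif3a at 0.22. Of the start codon factors 4 of 7 had a positive one, and in other complexes so did Eif2s2 at 0.50, Eif2a at 0.31 and Eif4b at 0.17. In carrier arrays alone the slopes of Eif2s2, Eif3c and Eif3a were negative and not called. Eif1 had a slope of 0.13, with an adjusted p of 0.0411, and 0.15 with an adjusted p of 0.118 with run and serum together as the block. Of the kinases and of eIF2B, 0 passed.

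These counts depended on few arrays and on the scaling. With run and serum together as the block, an alternative chosen after seeing the data, 10 members passed, 8 positive and 2 negative. Eif1b, Eif3e and Eif4ebp1 were among them, and 7.57% of all genes passed. Without the motorneuron run 5 members and 5.34% of all genes passed. In the carrier arrays alone 0 members did, although 193 genes of the table, or 0.984%, passed there. With array medians centred, 24 of 25 called slopes of members were positive, and with quantile normalization 7 of 11. Of all genes, 27.2% and 6.87% passed in these settings, in that order. Some markers also had called slopes: Pou5f1, a pluripotency factor, at -0.52, Nes, a progenitor filament, at -0.32, Pax6 at 0.22 and Isl1 at 0.14. Other markers of these types were not called, such as Isl2 at -0.20, Lhx3 at 0.04, Olig2 at 0.06, Sox2 at -0.14 and Nanog at -0.23. Of all genes, 14.0% passed. The part of the markers in the slopes of the members was not tested.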

How the data were processed

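RMA in aroma.affymetrix was run by the authors on all arrays together, after arrays that Grubbs' test called had been dropped, and the exons of a gene were averaged. The submitters' processing notes also name Affymetrix Expression Console. The deposited table holds linear intensities of 19613 genes. Whether exons were averaged on a log scale and the genome build are not given in the sources used here. Their log2 was taken with no pseudocount (0 added) and no filter. How precise a value can be is set by how many arrays each group has.

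The members and gene lists were chosen with earlier results of these data known. Gene symbols were matched to RefSeq (GRCm38.p6): all 55 matched, 5 of them through an older symbol. Models were fitted with limma 3.58.1 in R 4.3.3, two-sided, with p-values adjusted by Benjamini-Hochberg over the whole table and called under 0.05. They were the serum difference with the run as a block, the F test of runs with serum as a covariate, the F test of serum by run, and the slope on Atf4 with run and serum as covariates. The procedure was tested on simulated data. Intervals are 95% intervals of the limma coefficients. Every member could be named. Kinases, eIF2 subunits, eIF4E-binding proteins and called members were described by serum and run, and for each other complex the 2 widest and the narrowest run ranges were given. Slopes were named by the 3 smallest p on either side. The CCAAT search was added after seeing the promoters.

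Lists covered the integrated stress response, partners of initiation, elongation and termination, Y-linked genes (0 of 2 called with serum), and markers of motor neurons, neural progenitors, pluripotent cells and red blood cells. Eif3h, Eif4ebp3 and some listed genes (Denr, Eef1g, Uty, Slc18a3, Nkx6-1 and the globins) were not analysed here. The labels do not say that arrays of a group came from separate cultures, so p-values measure the spread between these arrays. Run C held more arrays than the batch size the study states and so may hold more than 1 batch. No pair of arrays was identical, and the highest Pearson r of a pair was 0.997. Grubbs' test was also run here, on the mean correlation of an array with the others of its run. It called array 115 of run C and array 138 of run E, which were kept. Without them Eif1, Eif3c and Eif4ebp1 were called with carrier serum, where 3.65% of all genes were called. Alternatives covered scaling, block, variance model, a filter on dim genes, an offset of 16, covariates, and runs or arrays left out.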

Additional observations from a re-analysis of the deposited data

Results flagged for a closer look

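For Eif1 in run D, the highest of the 4 non-carrier arrays had 12.5228 in log2 intensity, far from the other 3, which lay between 12.41 and 12.43. It was marked by a test for 1 outlying array in groups of 4 to 10, of which 8 were tested, and chance marks about 1 in 20 groups. Without run D Eif1 remained called with carrier serum.

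The serum change of Eif4ebp1 differed between runs by the interaction test of limma, with an adjusted p of 0.0024567, from -1.30 in run B to 0.20 in run C.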

How the results depend on the processing

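The count of 2 members called with carrier serum became 0 with no run block, where no gene of the table was called and Eif1 had an adjusted p of 0.845. It became 16 with the motor neuron genes Lhx3, Isl1, Mnx1 and Olig2 beside the run, where 31.2% of all genes were called, and 9 with array weights, where 14.3% were. It was 1 without runs E and F (Eif1), where 0.301% of all genes were called, and 1 in runs E and F alone (Eif4ebp1), where 0.0867% were. It was 1 without runs B and D (Eif1), where 0.117% were. With 1 run left out it ran from 1 to 6, with Eif1 called each time, and the share of all genes called ran from 0.54% to 8.16%. Eif1 ranged from -0.15 to -0.12 over 25 alternatives and Eif4ebp1 from -0.56 to -0.15. The count of members with a serum change that differed between runs was 1, and from 0 (without run C) to 1 with 1 run left out. Of all genes 0.127% were called, and from 0% to 0.275% with 1 run left out. The count related to Atf4 was 17, where 14.0% of all genes passed. It was 11 with quantile normalization (6.87% of all genes) and 25 with array medians centred (27.2%). It was 10 with run and serum together as the block (7.57%) and 0 in carrier arrays alone (0.984%). With 1 run left out it went from 5 to 21 (5.34% to 18.6%). In carrier arrays alone the slopes reversed for Eif1ad (-0.0584), Eif2s2 (-0.304), Eif3a (-0.0134) and Eif3c (-0.106). Members that differed between runs numbered 47 to 55, where 82.3% to 98.8% of the tested genes were called. The causes of these shifts were not tested. Whether numbers shared by titles pair the arrays could not be settled. Of 8 pairs, 1 had a correlation of deviations over 0.1, at 0.33. Groups this small constrain the deviations, and in the HB9MNs run, with 2 arrays per group, both pairs have the same value by construction. With the replicate block the count called with carrier serum was 2, the same 2 genes, where 2.62% of all genes were called.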
